A study of Mus musculus with 5 samples.

Results

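A small group of adipocyte nuclei in mouse interscapular brown adipose tissue (iBAT) carried RNA of Cyp2e1, Aldh1a1, Nnat, Lrrc4c and Cmklr1, and these nuclei are described here from single-nuclei RNA sequencing (snRNAseq). The matrix holds 20307 barcodes from 2 libraries, and a barcode entered as an adipocyte nucleus where it had at least 1000 UMIs (unique molecular identifiers, each standing for a captured RNA molecule), at least 0.8% of them from 8 adipocyte genes (Adipoq, Plin1, Plin4, Lipe, Pparg, Cidec, Pnpla2 and Acsl1), and at most 2 UMIs summed over 9 genes of other cells (Ptprc, Mrc1, Flt1, Cyyr1, Pdgfra, Abcc9, Ttn, Skap1 and Cadm2). This gate kept 13673 nuclei. Of these, 666 had at least 4 UMIs from at least 2 of the 5 rule genes and are called the white-like nuclei or members, chosen by these measured UMIs, whereas the 9343 gated nuclei with 0 UMIs of these genes are the comparison nuclei. Ucp1 had no part in the choice.

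The libraries came from sorted iBAT nuclei of male mice aged 3 months on a C57BL/6J background, 1 library from each genotype. The methods name 4 mice without saying how they were divided among libraries, so a library may pool animals. Ucp1-STX4KO mice carried Ucp1-Cre+/- together with STX4 fl/fl, so that deletion is tied to cells in which the Ucp1 promoter drives Cre, and the WT mice were littermate controls with either Ucp1-Cre+/- or STX4 fl/fl alone. The number that ends each barcode separates the libraries but no label ties it to a genotype, so values are given by suffix, no genotypes were compared, and with 1 library per condition no p-value was computed. The 95% intervals cover counting error only, and UMIs of separate nuclei of a library are not replicates of a condition. Stx4a, the gene targeted in the Ucp1-STX4KO mice, was read at 32.7 and 46.6 UMIs per 1000000 (CPM) in the members of suffix 1 and suffix 2, against 61.2 and 48.8 CPM in the comparison nuclei. Its ratio was 0.535 (0.335 to 0.811) in suffix 1 and 0.955 (0.812 to 1.12) in suffix 2, and a 3′ tag need not lie in the deleted part of the gene, so this checks no label.

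Brown adipocytes burn fatty acids in mitochondria that UCP1 uncouples, under the control of β-adrenergic signalling and of the coactivator PGC-1α. White adipocytes store lipid in a large droplet and secrete hormones such as leptin and, in mice, resistin. Of the rule genes, Cyp2e1 encodes an ethanol- and fatty acid-oxidising cytochrome P450, Aldh1a1 a retinaldehyde dehydrogenase, Nnat the imprinted endoplasmic reticulum protein neuronatin, Lrrc4c a ligand of netrin-G1 and Cmklr1 the receptor of the adipokine chemerin.

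Members were 64 of 9709 gated nuclei in suffix 1, or 0.659% (exact binomial interval 0.508 to 0.841), and 602 of 3964 in suffix 2, or 15.2% (14.1 to 16.3). Comparison nuclei numbered 7505 and 1838, so the members of the matrix come mostly from suffix 2 and the comparison nuclei mostly from suffix 1. Ratios in this matrix were therefore taken within a suffix, except where a ratio over both is named as pooled. The same barcode occurred under both suffixes 23 times, and 1 of these was a member. Members were deeper than the comparison nuclei, with a median of 7081 against 6004 UMIs in suffix 1 and 7086 against 4593.5 in suffix 2. A single member of suffix 1 held 68791 of the 672322 UMIs of its class. The range of UMIs given in the methods, 200 to 2000, with 100 to 3000 genes, held 2763 barcodes of the matrix and only 7 of the members, so that range was not applied.

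**Figure D1:**
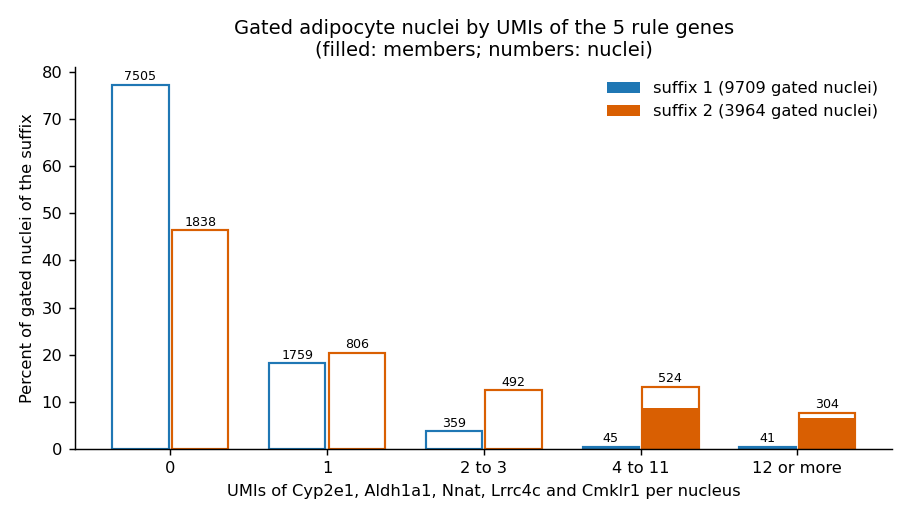
Gated nuclei of each barcode suffix (percent of the suffix's gated nuclei, vertical axis) by their UMIs of the 5 rule genes (horizontal axis). Filled parts are members and numbers are nuclei: 7505 and 1838 nuclei had no such UMI, and nuclei with 4 or more took a far larger part of suffix 2.

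The rule genes describe the members but are no finding about them. Their summed UMIs ran from 4 to 106 per nucleus in suffix 1 (median 13.5) and from 4 to 148 in suffix 2 (median 10), and 34 of 64 and 258 of 602 members had 12 or more. Cyp2e1 was read in 76.6% of the members of suffix 1 and 91.5% of those of suffix 2, and Nnat in 79.7% and 65.8%. Aldh1a1 was read in 50% and 58.3%, Cmklr1 in 50% and 24.1%, and Lrrc4c in 17.2% and 24.6%. Cyp2e1 with Nnat was the most frequent pair in both suffixes, in 59.4% and 58.1% of members. Most members had only 2 or 3 of the genes, and all 5 were read in 1 and in 13 nuclei.

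Free RNA gives UMIs in nuclei that do not use a gene, so each level was set beside 469 and 1702 nuclei of other cell types, called background nuclei, which had under 0.8% of UMIs in the adipocyte genes and at least 4 UMIs of the 9 genes of other cells. Their median depth was 3202 and 2792 UMIs. Cyp2e1 stood at 342 and 799 CPM in the members and at 2.20 and 48.1 CPM in the background nuclei, with a UMI in 0.853% and 14.1% of the latter. Nnat stood at 1188 and 892 CPM against 39.6 and 40.4 CPM. Since the rule asked for UMIs of these genes, this difference was fixed by the choice of members. Aldh1a1 gave 147 and 253 CPM in members but 349 and 139 CPM in background nuclei, whose endothelial and macrophage parts had 8.95 to 51.2 CPM. Cmklr1 gave 93.7 and 41.7 CPM against 39.0 and 42.3 CPM, and Lrrc4c 20.8 and 76.4 CPM against 41.8 and 26.9 CPM. The members of suffix 1 for Aldh1a1 and Lrrc4c, and of suffix 2 for Cmklr1, thus did not exceed the mixed background nuclei. That level differed by cell type and need not be free RNA alone. Cmklr1 stood at 8.44 and 25.6 CPM in the endothelial part and at 89.5 and 70.3 CPM in the macrophage part. Lrrc4c stood at 0 and 5.12 CPM in the endothelial part and at 0 and 5.38 CPM in the macrophage part.

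At the threshold, 12 and 73 members had exactly 4 UMIs. Just outside it, 21 and 90 gated nuclei had 3 UMIs of at least 2 genes, and 22 and 226 had 4 or more UMIs of 1 gene, of which Cyp2e1 made up 60 and 1513 UMIs and Nnat 187 and 442. Nnat lies on chromosome 2 (GRCm38, 157560078 to 157562522, plus strand) inside the span of Blcap on the other strand (157556362 to 157571274), and Aldh1a1 on chromosome 19 (20492715 to 20643465) has the close relative Aldh1a7 nearby (20692953 to 20727562), whose reads can be hard to tell from its own. Cyp2e1 is on chromosome 7 (140763739 to 140774987), Lrrc4c on chromosome 2 (96318169 to 97631666) and Cmklr1 on chromosome 5 (113612354 to 113650426).

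Beyond the rule and gate genes, the members differed from the comparison nuclei in a few percent of genes. Of 5601 genes with a mean of at least 20 CPM over the 2 classes in each suffix, 209 (3.73%) were at least 2-fold higher in both suffixes and 70 (1.25%) were at most 0.5 of the comparison level in both. The interval of the ratio lay above 1 in both suffixes for all 209 and below 1 for all 70, and for 728 and 860 genes in all when no fold was asked for. The median ratio of the 5601 genes was 0.955 in suffix 1 and 1.01 in suffix 2. With each nucleus weighted equally the counts were 257 higher and 182 lower, and without the deepest member of suffix 1 they were 231 and 110, so the count of lower genes depends more on these choices. Of the 209 higher genes, 118 had under 20 CPM in the comparison nuclei of a suffix and so passed the minimum there only through the members, and 32 of the 70 lower genes had under 20 CPM in the members of a suffix. This shapes the counts called in the lists below, and the counts are given as a description.

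**Figure D2:**
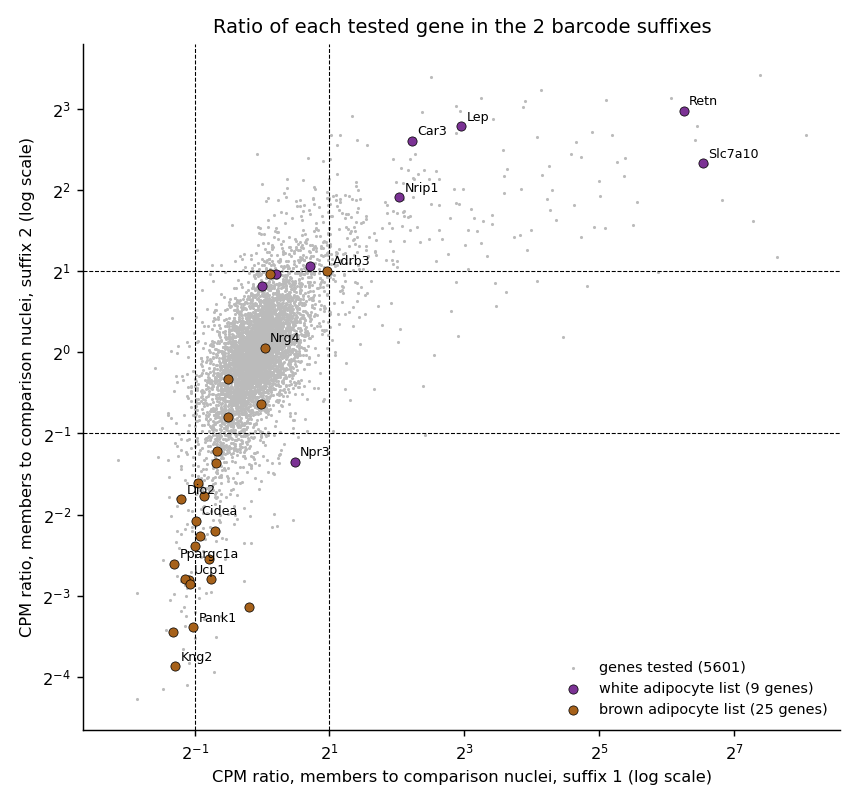
CPM ratio of members to comparison nuclei in suffix 1 (horizontal axis) and suffix 2 (vertical axis), both on log scales, for 5601 genes (grey), the white adipocyte list (purple) and the brown adipocyte list (brown). Dashed lines mark ratios of 0.5 and 2, with Retn, Slc7a10, Lep, Car3 and Nrip1 in the upper right and Ucp1, Ppargc1a, Pank1 and Kng2 in the lower left.

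Most tested genes of white adipocytes were higher in the members. Of 15 genes of the white adipocyte list, 9 reached 20 CPM and 5 of these were at least 2-fold higher in both suffixes, against 3.73% of all genes, and 0 were lower. Of the 5, Lep, Retn and Slc7a10 passed the minimum in a suffix only through the members, while Car3 and Nrip1 were above 20 CPM in both classes, and the 6 genes not tested were at 4.37 CPM or less in members. The median ratio of the 9 was 4.11 in suffix 1 and 3.76 in suffix 2. The ratio was above 1 in both suffixes for 7 of the 9, and the interval lay above 1 in both for 6. Retn, which encodes the hormone resistin, had 148 UMIs in the 64 members of suffix 1 (220 CPM) and 1164 in the 602 of suffix 2 (242 CPM). In the comparison nuclei it stood at 2.89 and 30.9 CPM, a ratio of 76.2 (60.2 to 96.5) and 7.85 (6.92 to 8.93). The members thus had like levels in both suffixes, and the ratios differ because the comparison nuclei of suffix 2 held more of it. In the background nuclei Retn was at 2.20 and 16.0 CPM. With each nucleus thinned to 1000 UMIs, a Retn UMI remained in 21.9% and 20.4% of members and in 0.386% and 3.16% of comparison nuclei (62.5%, 64.8%, 1.57% and 9.79% unthinned).

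Slc7a10, a transporter of neutral amino acids found on white adipocytes, behaved alike with 248 and 682 CPM in members and 2.67 and 136 CPM in comparison nuclei, a ratio of 93.0 (73.7 to 118) and 5.03 (4.72 to 5.36). Lep, which encodes leptin, was low but higher in members, with 29 UMIs (43.1 CPM) and 348 UMIs (72.5 CPM) against 5.56 and 10.5 CPM. Its ratio was 7.76 (5.10 to 11.4) and 6.89 (5.53 to 8.64). A Lep UMI was read in 18.8% and 29.9% of members and in 3.29% and 3.81% of comparison nuclei, but after thinning to 1000 UMIs in 0 of the 64 members of suffix 1 and 6.31% of those of suffix 2. Car3, an abundant carbonic anhydrase of adipocytes, reached 4127 and 7682 CPM against 887 and 1264 CPM, a ratio of 4.65 and 6.08. Nrip1, a corepressor that holds down oxidative genes in white fat, stood at 882 and 1922 CPM against 215 and 511 CPM, a ratio of 4.11 and 3.76. Zfp423, a regulator of white adipocyte identity, was at 351 and 284 CPM, 1.65 (1.44 to 1.87) and 2.09 (1.93 to 2.25) times its level in the comparison nuclei. Npr3, the clearance receptor of natriuretic peptides, had ratios on opposite sides of 1, 1.40 in suffix 1 and 0.393 in suffix 2. The regional genes Hoxc9 and Hoxc10, which mark fat depots of the rear body, and Tcf21 had 0 UMIs in the members and comparison nuclei of both suffixes, which limits them in the members to at most 3 UMIs in 672322 and in 4801846.

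Since Lep is a defining hormone of white adipocytes, the 250 bases before its start are shown, taken from RefSeq on GRCm38, plus strand, chr6:29059971-29060220, with the letters that match TTGCNNAA, a motif of the C/EBP type, in capitals.
Lep: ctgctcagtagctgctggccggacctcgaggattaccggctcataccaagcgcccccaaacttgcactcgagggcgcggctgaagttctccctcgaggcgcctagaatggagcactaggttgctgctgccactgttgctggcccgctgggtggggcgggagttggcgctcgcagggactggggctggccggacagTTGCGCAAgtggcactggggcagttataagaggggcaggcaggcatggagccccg
The motif was searched on both strands and starts 55 bases before the start of the gene. It was found in the promoters of 15 of 159 genes higher in members that have an entry, or 9.43%, of 8 of 59 lower genes, or 13.6%, and of 372 of 4477 genes tested, or 8.31%. The motif AAGGTCA, bound by estrogen-related receptors, was found for 1 of 159, 2 of 59 and 156 of 4477 genes (0.629%, 3.39% and 3.48%). The exact intervals for TTGCNNAA, 5.38% to 15.1% for the higher and 6.04% to 25.0% for the lower genes, hold the share of all genes tested. For AAGGTCA the interval of the higher genes, 0.0159% to 3.45%, lies just under the share of all genes tested, and that of the lower genes, 0.413% to 11.7%, holds it. Of 10 higher or white list genes looked up with an entry, only Lep and Chst1 held TTGCNNAA, and the entries of Retn, Slc7a10 and Nrip1 did not. A match of letters is not a bound site.

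Genes of brown adipocytes were lower in the members. Of 32 genes of the brown adipocyte list, 25 reached 20 CPM in both suffixes. Of these, 8 were at most 0.5 of the comparison level in both, against 1.25% of all genes, and 0 were called higher. Of the 8, 2 had under 20 CPM in the members of a suffix. The median ratio of the 25 was 0.549 in suffix 1 and 0.217 in suffix 2, and the interval lay below 1 in both suffixes for 20 of the 25. Ucp1, the uncoupling protein that gives brown fat its heat, stood at 494 CPM in the members of suffix 1 (332 UMIs) and 170 CPM in those of suffix 2 (817 UMIs). In the comparison nuclei it was at 1048 and 1187 CPM, a ratio of 0.471 (0.422 to 0.525) and 0.143 (0.133 to 0.154). Ucp1 was thus lower in the members of both suffixes, and further so in suffix 2.

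Free RNA can add Ucp1 UMIs to the members, and its part was not measured, so the background nuclei are given for comparison. The background nuclei had 407 and 221 CPM of Ucp1, so the members of suffix 2 lay below them and those of suffix 1 above. No Ucp1 UMI was read in 16 of 64 members (25.0%) and 288 of 602 members (47.8%), against 4.96% and 17.3% of comparison nuclei and 30.7% and 52.6% of the shallower background nuclei. Thinned to 1000 UMIs, a Ucp1 UMI remained in 25.0% and 15.9% of members, 58.7% and 56.9% of comparison nuclei, and 33.0% and 21.6% of background nuclei. At equal depth the members therefore carried Ucp1 no more often than nuclei of other cell types. In suffix 1 the highest member had 57 Ucp1 UMIs, with a median of 1.5 and an upper quartile of 3.25 over the 64, so a few nuclei carried much of the sum.

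The other lower genes of the list were Ppargc1a, Esrrg, Dio2, Cpt1b, Acot11, Pank1 and Kng2. Ppargc1a, which encodes PGC-1α, was at 323 and 2658 CPM against 795 and 16162 CPM, a ratio of 0.406 and 0.164, with 193 and 2519 CPM in background nuclei. Its level in comparison nuclei differed widely between suffixes while its direction in members was the same. Esrrg, an estrogen-related receptor that PGC-1α coactivates, was at 848 and 246 CPM against 1869 and 1710 CPM (0.454 and 0.144). Dio2, the deiodinase that activates thyroid hormone, was at 29.7 and 217 CPM against 68.2 and 758 CPM (0.436 and 0.286). Cpt1b, which brings fatty acids into mitochondria, had ratios of 0.475 and 0.139, Acot11, a cold-inducible thioesterase of brown fat, 0.402 and 0.0917, Pank1, a kinase of coenzyme A synthesis, 0.493 and 0.0955, and Kng2, a kininogen, 0.410 and 0.0686. Cidea, a lipid droplet protein typical of brown fat, just missed the limit with 643 and 212 CPM against 1272 and 895 CPM, a ratio of 0.505 (0.458 to 0.555) and 0.237 (0.222 to 0.253).

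Of the 25 genes, 3 were not below 1 in both suffixes, Adrb3, Nrg4 and Mtus1. Adrb3, the β3-adrenergic receptor, was at 767 and 1185 CPM in members and 393 and 591 CPM in comparison nuclei, 1.95 (1.79 to 2.13) and 2.00 (1.93 to 2.08) times as high. Nrg4, a secreted neuregulin of brown fat, was close to even at 1.03 and 1.04, and Mtus1 at 1.08 and 1.95. Ebf2, a factor of brown adipocyte identity, was at 0.989 (0.921 to 1.06) and 0.646 (0.624 to 0.668), and Prdm16 at 0.624 and 0.388. Lhx8 and Zic1, transcription factors of the interscapular depot, were too low to be counted, with 19.3 and 12.5 CPM for Lhx8 and 4.46 and 6.04 CPM for Zic1 in members.

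**Figure D3:**
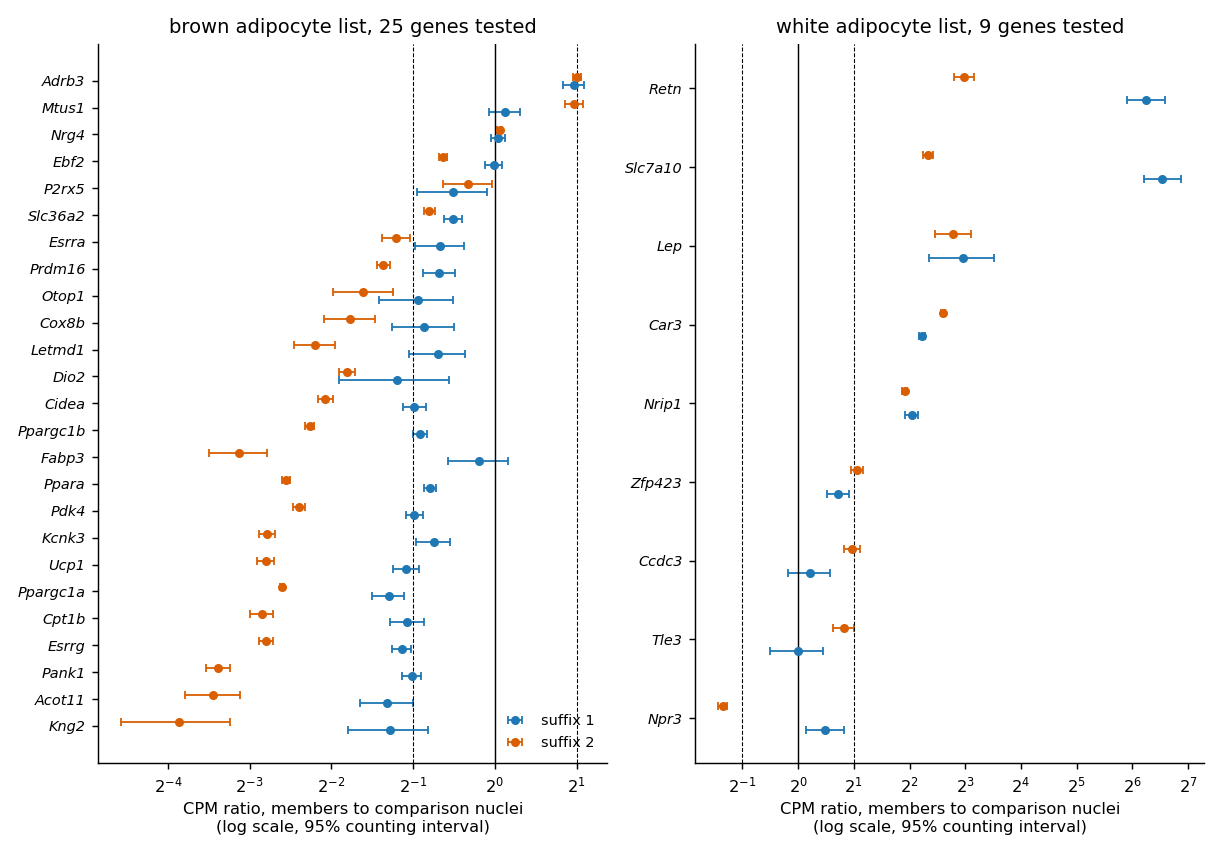
CPM ratios of members to comparison nuclei (horizontal axis, log scale) with 95% counting intervals for the 25 brown and 9 white adipocyte genes tested, suffix 1 in blue and suffix 2 in orange. Most brown genes lie left of 1 in both suffixes and further left in suffix 2, whereas Retn, Slc7a10, Lep, Car3 and Nrip1 lie right of 2 in both.

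Levels of Ucp1 and Retn shifted with the number of rule-gene UMIs, except that Retn in suffix 1 was as high with 4 to 11 as with 12 or more. Ucp1 went from 1048 CPM in nuclei with 0 such UMIs to 1015 with 1, 950 with 2 to 3, 612 in members with 4 to 11, and 348 in members with 12 or more in suffix 1. In suffix 2 the same steps gave 1187, 1081, 646, 189 and 150 CPM. Retn went the other way, with 2.89, 3.27, 8.35, 227 and 212 CPM in suffix 1 and 30.9, 40.04, 97.0, 222 and 264 CPM in suffix 2. Over the 209 higher genes, the median ratio to the comparison nuclei was 3.11 and 3.04 in members with 4 to 11 UMIs and 5.45 and 3.63 in those with 12 or more, and over the 70 lower genes it was 0.526 and 0.246, then 0.322 and 0.197. These genes were called on the same members and comparison nuclei, so medians away from 1 in both parts largely follow from that choice. In suffix 2, nuclei with 2 to 3 UMIs thus lay between the comparison nuclei and the members for both Ucp1 and Retn. Gated nuclei with 4 or more UMIs of a single rule gene, which the rule left out, had 632 and 187 CPM of Ucp1 and 83.4 and 115 CPM of Retn, on the side of the members for both genes in both suffixes. A deeper nucleus reaches 4 UMIs more easily, and within 3000 to 10000 UMIs the Ucp1 ratio was 0.262 and 0.121.

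**Figure D4:**
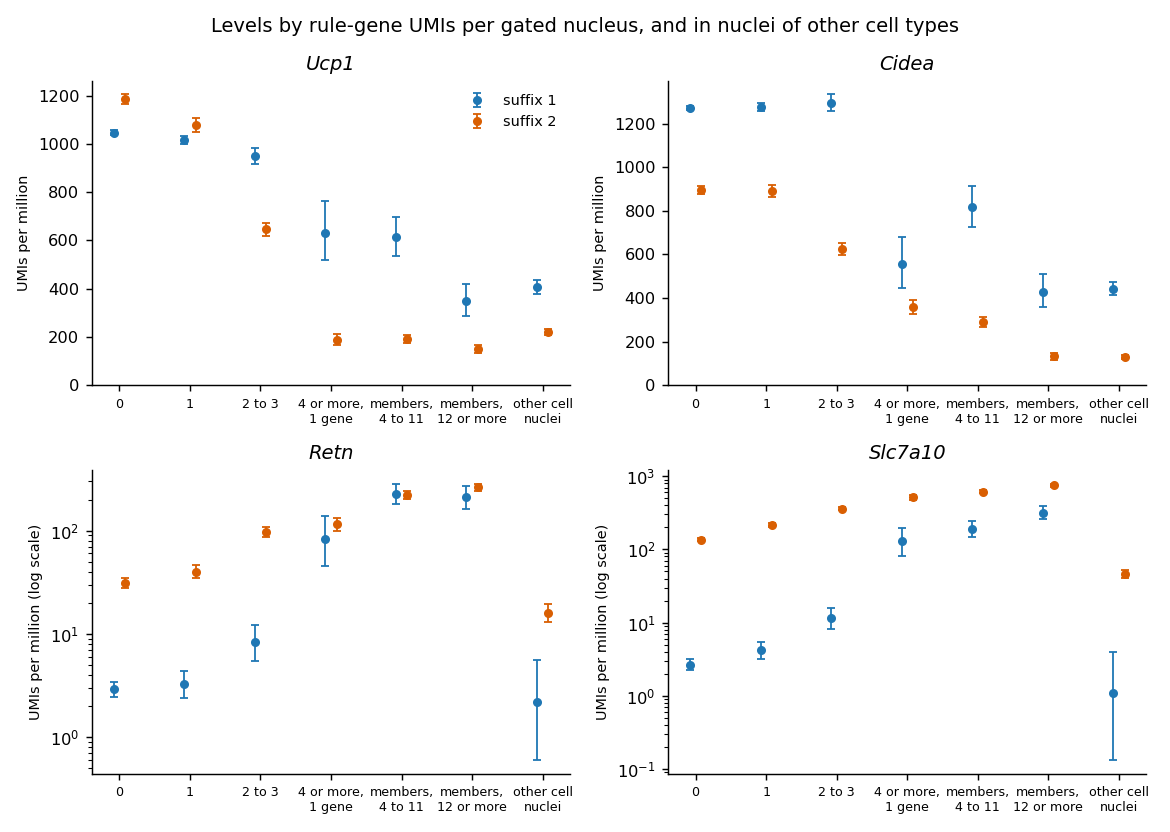
Levels of Ucp1, Cidea, Retn and Slc7a10 (CPM, vertical axis, log scale for Retn and Slc7a10) by the rule-gene UMIs of gated nuclei and in background nuclei of other cell types, with 95% Poisson intervals. Ucp1 goes from 1187 to 150 CPM across the classes of suffix 2 and Retn goes from 30.9 to 264 CPM.

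Genes of fatty acid oxidation and of the respiratory chain had lower RNA in the members, mostly by less than 2-fold. In the list of fatty acid oxidation, 15 of 16 genes were tested, 2 were called lower (Cpt1b, above, and Acadvl, the very long-chain acyl-CoA dehydrogenase, at 0.491 and 0.381), and the interval lay below 1 in both suffixes for 11, against 1.25% of all genes called lower and 860 of 5601 with such an interval. The median ratio was 0.663 and 0.559. Hadha, Hadhb and Etfdh, which act in mitochondrial β-oxidation, were at 0.663 and 0.449, 0.560 and 0.370, and 0.656 and 0.327. In the respiratory chain 16 of 18 genes were tested and 0 were called in either direction, while the interval lay below 1 in both suffixes for 14, with a median ratio of 0.677 and 0.533. Sdhb, a subunit of complex II, was at 0.474 and 0.535, and Cox8b, a muscle- and brown fat-type subunit of complex IV, at 0.549 and 0.292. The summed RNA of the 18 genes was 1917 and 1130 CPM in members and 1925 and 1083 CPM in the background nuclei, so it was at the level of other cell types.

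Lipid storage and synthesis showed no common direction. Of 13 tested genes of lipid droplets and lipolysis, 0 were called, against 3.73% higher and 1.25% lower among all genes, with a median ratio of 0.907 and 1.11. Plin2 and Plin5, coat proteins of lipid droplets, were at 0.645 and 0.416, and 0.523 and 0.310. Dgat2, which makes triglyceride, was at 1.18 (1.07 to 1.29) and 3.67 (3.46 to 3.89), and Pnpla3 at 1.13 and 2.67. Among 14 tested genes of de novo lipogenesis, 1 was called lower, against 1.25% of all genes, and 0 were called higher. It was Elovl6, a fatty acid elongase, at 428 and 324 CPM against 878 and 1254 CPM (0.488 and 0.258). Pcx, pyruvate carboxylase, was at 1.88 (1.73 to 2.05) and 2.58 (2.48 to 2.69), and Fasn, fatty acid synthase, at 0.776 and 1.23. The gate genes, which the choice used, were at 1.49 and 2.95 for Adipoq, 2.19 and 3.93 for Cidec and 0.748 and 0.811 for Pparg.

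Fatty acid uptake split between its carriers. Of 8 genes tested, 1 was higher and 2 were lower, against 3.73% and 1.25% of all genes. Slc27a1 was higher, at 944 and 1273 CPM against 411 and 552 CPM (2.30 in both suffixes, 2.12 to 2.48 and 2.22 to 2.39). Slc27a2 and Acsl5, both acyl-CoA synthetases, were lower, at 0.453 and 0.0970, and 0.448 and 0.114. Of these 2, 1 had under 20 CPM in the members of a suffix. Lpl and Cd36 lay near the comparison level, at 1.27 and 0.827, and 0.917 and 0.994. Fabp4, the adipocyte fatty acid carrier, was at 1.16 and 1.79.

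Secreted factors included further higher genes. Of 11 tested genes of the adipokine and chemerin list, 4 were higher, Lep and Retn as above, Cfd and Igf1, against 3.73% of all genes. Lep, Retn and Igf1 passed the minimum in a suffix only through the members, and Lep and Retn are counted in the white list too. Cfd, the protease adipsin, was at 280 and 225 CPM against 61.4 and 79.4 CPM (4.55 and 2.83), and the growth factor Igf1 at 58.0 and 123 CPM against 5.76 and 53.7 CPM (10.1, 7.02 to 14.1, and 2.28, 2.03 to 2.57). Rarres2, which encodes chemerin, the ligand of the rule gene Cmklr1, was too low to be counted, with 13 and 54 UMIs (19.3 and 11.2 CPM) in members against 4.64 and 4.27 CPM. Vegfa was at 0.722 and 0.661. Igf1 is also made by stromal cells, whose markers are given below.

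Genes that share a pathway with Cyp2e1 and Aldh1a1 were tested only in part. In the list for alcohol, aldehyde and acetate, 7 of 12 genes were tested and 0 were called, against 3.73% higher and 1.25% lower among all genes. So few genes do not set the list apart from that share. Aldh2, the mitochondrial acetaldehyde dehydrogenase, was at 80.3 and 81.4 CPM against 46.3 and 28.3 CPM (1.73, 1.30 to 2.27, and 2.88, 2.46 to 3.36), and catalase (Cat) at 1.09 and 2.04. Acss1, which activates acetate in mitochondria, was at 0.503 (0.397 to 0.630) and 0.109 (0.0874 to 0.135). Of 22 retinoid genes only 6 were tested, and 1 was called lower, against 1.25% of all genes. It was Rarb, a retinoic acid receptor, at 0.462 and 0.418. Dhrs3, which reduces retinaldehyde, was at 1.27 (0.921 to 1.71) and 2.34 (2.07 to 2.65). Aldh1a7, the relative of Aldh1a1, had 7 UMIs in suffix 1 (ratio 0.964) and 299 in suffix 2 (5.97).

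The receptors and effectors of catecholamine and insulin signalling were mixed. Of 12 tested genes for adrenergic signalling and cAMP, 1 was called higher and 1 lower, against 3.73% and 1.25% of all genes. Adcy5, an adenylyl cyclase, was the higher one, and it passed the minimum in suffix 1 only through the members. It had 86 UMIs (128 CPM) and 584 UMIs (122 CPM) in members against 1.14 and 33.1 CPM, a ratio of 113 (79.7 to 160) and 3.68 (3.21 to 4.22). Like Retn, it had close levels in the members of both suffixes. Gnas, which encodes the stimulatory G protein subunit, was lower at 1397 and 403 CPM against 3298 and 1411 CPM (0.424 and 0.286). Adcy3 was at 0.507 and 0.298, Adra1a, the α1A receptor, at 0.596 and 0.318, and Pde3b, which degrades cAMP under insulin control, at 1.29 and 1.58. Of 13 tested insulin and glucose genes 0 were called, against the same shares of all genes. Pik3r1, a regulatory subunit of PI3-kinase, was at 1.73 and 4.03, Irs1 at 2.56 (2.27 to 2.87) and 1.26 (1.21 to 1.31), Irs2 at 1.38 and 0.239, Slc2a4, the insulin-responsive glucose carrier, at 0.692 and 0.701, and Insr at 0.970 and 1.08.

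Interferon-stimulated and pyroptosis genes looked raised in the members when the suffixes were pooled, and less so within them. The summed RNA of 38 interferon-stimulated genes was 1.43 (1.39 to 1.47) times as high in members over both suffixes, but 1.29 (1.19 to 1.40) in suffix 1 and 1.22 (1.18 to 1.27) in suffix 2. Only 6 of the genes were tested, and 1 was called higher, against 3.73% of all genes. It was Nlrc5, the activator of MHC class I genes, at 87.8 and 222 CPM against 33.0 and 94.2 CPM (2.66 and 2.35). B2m, part of MHC class I, was at 3.75 (3.04 to 4.59) and 1.53 (1.38 to 1.69), and Ifi27 at 0.713 and 0.601. Iigp1, an interferon-inducible GTPase, had 0 UMIs in the members of suffix 1, which allows up to 4.46 CPM against 1.63 CPM in the comparison nuclei, and 117 against 97.8 CPM in suffix 2, an interval of the ratio from 1.08 to 1.33. Rsad2, an antiviral enzyme, was at 0.492 (0.260 to 0.873) in suffix 2. The background nuclei had 1333 and 1459 CPM of the 38 genes, more than the 925 and 1089 CPM of the members. For 9 pyroptosis genes, of which 0 reached 20 CPM, the pooled ratio was 1.89 (1.58 to 2.23), and within the suffixes it was 1.36 (0.699 to 2.39) on 12 UMIs and 1.15 (0.931 to 1.41) on 147 UMIs.

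The 10 genes with the highest ratios in the less extreme suffix were Chst1, Gpt2, Heph, Clmp, Slc43a1, Eepd1, Grb10, Retn, Prr5l and Gm20528. All 10 had under 20 CPM in the comparison nuclei of a suffix, so they passed the minimum there only through the members. Chst1, a sulfotransferase of carbohydrate chains on chromosome 2 (92599707 to 92615250), had 83 UMIs (123 CPM) and 533 UMIs (111 CPM) in members against 0.737 and 10.4 CPM, a ratio of 167 (112 to 254) and 10.6 (8.62 to 13.3). Gpt2, the mitochondrial alanine aminotransferase, was at 17.6 and 9.38, and Slc43a1, a carrier of large neutral amino acids, at 34.5 and 8.64. Heph, a copper-dependent iron oxidase, was at 9.52 and 8.78, and Clmp, a cell adhesion molecule first described in adipocytes, at 66.9 and 8.73. Eepd1, Prr5l, a partner of the kinase complex mTORC2, and the predicted gene Gm20528 followed with 14.9 and 8.56, 7.66 and 7.86, and 7.33 and 8.21.

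At the other end stood Zfp827, Cabcoco1, A530065N20Rik, Nol4l, Lncbate10, Gm20721, Sat1, Hk1, Spata17 and Ptdss2. Of these, only Lncbate10, Sat1 and Spata17 were above 20 CPM in the members of both suffixes. A530065N20Rik, an unnamed transcript, had 153 and 12.1 CPM in members against 423 and 214 CPM (0.362 and 0.0564). Lncbate10, a long noncoding RNA named for brown fat, was at 41.6 and 35.4 CPM against 112 and 378 CPM (0.371 and 0.0936), and the zinc finger gene Zfp827 at 0.276 and 0.128. Hk1, a hexokinase, was at 0.387 and 0.121, Sat1, which acetylates polyamines, at 0.383 and 0.292, and Ptdss2, a phosphatidylserine synthase, at 0.382 and 0.397. The other 4 ranged from 0.277 to 0.392 in suffix 1 and from 0.0519 to 0.346 in suffix 2. The intervals of all 10 lay below 1 in both suffixes, on 8 to 103 UMIs per gene in the members of suffix 1.

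Since Nnat is imprinted, other imprinted genes were read. Of 15, 4 were tested and 2 were higher, against 3.73% of all genes. Grb10, an adaptor that damps insulin receptor signalling, was at 83.3 and 83.5 CPM against 5.70 and 10.3 CPM (14.6, 10.8 to 19.5, and 8.09, 6.50 to 10.1). It passed the minimum of 20 CPM in both suffixes only through the members. Sgce was at 2.05 and 3.21, and Peg3 at 1.12 and 0.739. Blcap, which encloses Nnat, was at 1.61 (1.27 to 2.01) and 1.82 (1.64 to 2.03). Plagl1, an imprinted zinc finger factor, was too low to be counted but had 16 and 58 UMIs (23.8 and 12.1 CPM) against 0.179 and 1.49 CPM. Among other netrin-G and netrin-G ligand genes, Lrrc4 and Ntng2 were tested and 0 were called, with 72.9 and 25.0 CPM of Lrrc4 against 72.8 and 26.8 CPM.

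Markers of other cell types were low in the members, with some exceptions. The adipocyte label rests on the gate, whose 8 adipocyte genes took 1.39% and 2.24% of the UMIs of members and 1.25% and 1.58% of those of comparison nuclei, so these shares are no independent check of it. The macrophage list of 6 genes summed to 112 and 78.3 CPM in members, 22.5 and 47.6 CPM in comparison nuclei and 665 and 1117 CPM in background nuclei. Mertk alone gave 73 of 75 and 316 of 376 of these UMIs, while Adgre1, Csf1r and Cd163 were at 0 in suffix 1. The 10 fibroblast and progenitor genes summed to 122 and 86.6 CPM in members, 21.3 and 56.2 CPM in comparison nuclei and 1546 and 466 CPM in background nuclei. Col3a1 was called higher (8.09 and 2.50) and Col1a2 was at 6.47 and 1.08, while Dpp4 and Pi16 were at 0 in suffix 1. The 5 Schwann cell genes summed to 204 and 176 CPM in members, 22.0 and 60.8 CPM in comparison nuclei and 377 and 205 CPM in background nuclei, and the sodium channel gene Scn7a gave 116 of 137 and 730 of 846 of these UMIs (19.1 and 4.92), with Sox10 at 0 and 1 UMI. Mertk, Col3a1 and Scn7a were each the only gene of their list tested, and each was called higher, against 3.73% of all genes. Each passed the minimum of 20 CPM in a suffix only through the members. Endothelial, mural, lymphocyte and skeletal muscle lists each stayed at or below 35.4 CPM in members, against 114 to 5834 CPM in background nuclei. The mesothelial list was at 7.44 and 1.46 CPM in members, on 5 and 7 UMIs, against 2.75 and 2.39 CPM in background nuclei. The part of other cells in the results was not tested, and with 0 UMIs of the 9 exclusion genes asked for, 374 members remained with a Ucp1 ratio of 0.363 and 0.128.

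The members were not uniform. In suffix 1, the 13 with Nnat but no Cyp2e1 had 840 CPM of Ucp1 (712 to 984), 32.9 CPM of Retn (12.1 to 71.7) and 49.4 CPM of Slc7a10, while the 38 with both genes had 355 CPM of Ucp1 (297 to 421), 241 CPM of Retn (194 to 297) and 290 CPM of Slc7a10. The 11 with Cyp2e1 but no Nnat had 330, 443 and 461 CPM. The 2 members of suffix 1 with neither gene had 866 CPM of Ucp1 (461 to 1480), 399 of Retn (147 to 869) and 133 of Slc7a10 (16.1 to 481). Ucp1 was thus lower in both classes with Cyp2e1, whereas Retn had no such order, and Lep stood at 13.6 CPM (4.40 to 31.6) with both genes, 94.2 (45.2 to 173) with Cyp2e1 only and 65.9 (34.0 to 115) with Nnat only. In suffix 2 the 3 larger classes were close in Ucp1, with 164 CPM of Ucp1 in 350 nuclei with both genes, 156 in 201 with Cyp2e1 only, and 216 in 46 with Nnat only, and they had 228, 239 and 353 CPM of Retn. The 5 members of suffix 2 with neither gene had 601 CPM of Ucp1 (416 to 840) and 424 of Retn (272 to 631). Lep was at 71.6, 59.2 and 149.7 CPM in the 3 larger classes, in the same order, and at 35.3 CPM (4.28 to 128) in the 5 with neither gene. Car3 was at 4966, 5508 and 1800 CPM in suffix 1 in the order both, Cyp2e1 only and Nnat only, and at 8011, 7529 and 6095 CPM in suffix 2.

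The same rule was applied to the aging matrix of the series, which holds 30000 barcodes of iBAT nuclei from male C57BL/6J mice of 2, 12 and 24 months in 1 library per age. Its nuclei are shallow, 1225 passed the gate, and 13 were members (10, 1 and 2 by suffix, none tied to an age), against 1069 comparison nuclei. The members held 51295 UMIs in all and the comparison nuclei had a median of 2213 UMIs each. Pooled over its suffixes, Ucp1 had 0 UMIs in the 13 members, which allows up to 58.5 CPM, against 1404 CPM in the comparison nuclei, so it was at least 24.0-fold lower. Retn had 17 UMIs (331 CPM) against 3.84 CPM, a ratio of 86.3 (37.3 to 211), Slc7a10 31 UMIs (604 CPM) against 3.07 CPM (197, 88.4 to 495), and Lep 4 UMIs against 14.2 CPM (5.49, 1.42 to 15.3). Adcy5 was at a pooled 43.2 (23.7 to 78.3), Igf1 at 18.3 (12.9 to 25.4) and Car3 at 4.00 (3.60 to 4.43).

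These 13 nuclei shared the directions of the first matrix for most named genes. The 9 white list genes summed to 3.94 (3.60 to 4.31) times the comparison level, against 3.97 and 3.79 in the suffixes of the first matrix. In the members of the first matrix Car3 alone made up most of that sum, so it weighs Car3 more than the other genes. The 25 brown list genes summed to 0.383 (0.347 to 0.421), against 0.620 and 0.289. The 209 higher genes summed to 4.36 (4.22 to 4.49) and the 70 lower genes to 0.196 (0.171 to 0.224). Adrb3 was again higher than in comparison nuclei at 2.50 (1.79 to 3.41), and Nrg4 stood at 1.53 (1.25 to 1.86). Scn7a was at 16.9 (8.53 to 31.6) on 14 UMIs and Nlrc5 at 5.03 (2.53 to 9.12) on 12, while Mertk (0.989, 0.202 to 2.94), Iigp1 on 1 UMI and Stx4a on 4 UMIs could not be told from the comparison level. No 2-fold calls were made in so few nuclei. These values pool suffixes that differ in their share of members, and within the suffix that held 10 of the 13 members the sums were 3.34 (3.02 to 3.69) for the white list, 0.427 (0.384 to 0.472) for the brown list, 3.78 (3.65 to 3.92) for the higher and 0.215 (0.186 to 0.248) for the lower genes. Within it Retn was at 53.6 (22.3 to 138), Slc7a10 at 271 (83.5 to 1398), Adcy5 at 19.3 (9.63 to 37.6), Lep at 6.46 (1.19 to 23.2), Car3 at 3.26 (2.90 to 3.65), Adrb3 at 3.38 (2.35 to 4.74), Igf1 at 11.3 (7.93 to 16.0) and Ucp1 at least 16.9-fold lower, while in the other suffixes Adrb3 rested on 1 and 3 UMIs with ratios of 0.934 and 0.915.

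**Figure D5:**
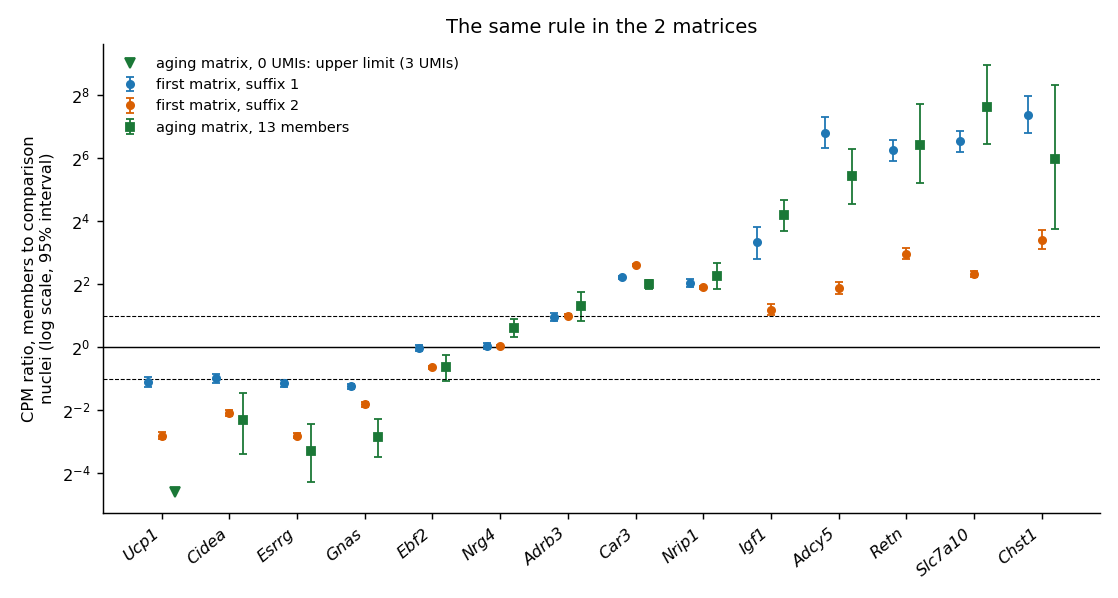
CPM ratio of members to comparison nuclei (vertical axis, log scale, 95% counting intervals) for 14 genes in suffix 1 (blue) and suffix 2 (orange) of the first matrix and in the 13 members of the aging matrix (green). Ucp1 had no UMI in the latter, so the triangle marks the limit that 3 UMIs allow, at least 24.0-fold below the comparison nuclei.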

How the data were processed

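The authors aligned reads to mm10 with Cell Ranger 6.1.2 and deposited raw UMI counts per gene and barcode, with 32285 genes in each of 2 matrices. Per the labels, nuclei were sorted before the 10x Genomics 3′ assay. Counts were summed over members and comparison nuclei within each barcode suffix in scipy 1.17.1 and numpy 2.4.6 (Python 3.11.15, tables in pandas 2.3.3) and divided by the class total to give CPM. The exact intervals at 95% were Poisson for CPM, Clopper-Pearson for shares and conditional binomial for ratios. The rule and gate genes were left out of the counts of higher and lower genes, no pseudocount was used, and a count of 0 is given by the limit that 3 UMIs allow. The members, the 28 gene lists and the named genes were chosen with earlier results of these data known. The text names rule genes, list genes and, in either direction, the 10 called genes ranked first by the ratio of their less extreme suffix. The section of other observations also names called genes that were picked after their values were seen. Symbols of 3 of the 340 list genes had no row (Gyk, Mx1 and Mx2). Positions come from a GRCm38 annotation matched for 358 of 358 genes. No doublet caller was run, and the limit of 2 exclusion UMIs is the only filter on mixed barcodes. The call procedure was tested on simulated data. Depth ran from 1509 to 68791 UMIs per member, and whether read depth was equalised between libraries is not given in the sources used here.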

Additional observations from a re-analysis of the deposited data

Results flagged for a closer look

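In the 4 list genes named here, the members stood at least 1.25-fold above the comparison nuclei in one library and at 0.8 of them or less in the other, with both counting intervals clear of 1. The difference between the libraries was not tested. Npr3, the natriuretic peptide clearance receptor, had a ratio of 1.40 (1.10 to 1.76) in suffix 1 and 0.393 (0.371 to 0.415) in suffix 2. G0s2, an inhibitor of lipolysis, had 0.681 (0.579 to 0.797) and 1.98 (1.81 to 2.16). Dgat1, a triglyceride-forming enzyme, had 1.28 (1.12 to 1.45) and 0.752 (0.730 to 0.775). Irs2, an insulin receptor substrate, had 1.38 (1.01 to 1.84) and 0.239 (0.223 to 0.256). Of all 5601 genes tested, 55 were above 1 in suffix 1 and below 1 in suffix 2 by their intervals, and 71 the other way, with no minimum fold.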

How the results depend on the processing

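The Ucp1 ratio stayed below 1 in both suffixes under every alternative run, and the medians of the white list (2.905 to 5.86 in suffix 1, 2.53 to 4.06 in suffix 2) and of the brown list (0.354 to 0.612 and 0.171 to 0.288) kept their sides of 1, whereas the median of de novo lipogenesis did not (0.832 to 1.10 and 0.910 to 1.10). No paired analysis was possible because there is 1 library per condition. The main counts were 666 members, 209 higher and 70 lower genes, and Ucp1 ratios of 0.471 and 0.143.

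Asking for 0 exclusion UMIs gave 374 members, 134 lower genes and Ucp1 ratios of 0.363 and 0.128. At least 6 rule-gene UMIs gave 147 lower genes and ratios of 0.412 and 0.131, and at least 3 rule genes gave 323 members, 331 higher and 226 lower genes and ratios of 0.260 and 0.113. At least 12 rule-gene UMIs, chosen after seeing the data, gave 292 members, 181 lower genes and ratios of 0.332 and 0.126. Weighting nuclei equally gave 182 lower genes and 0.322 in suffix 1. Nuclei of 3000 to 10000 UMIs gave 218 lower genes and ratios of 0.262 and 0.121, and leaving out the deepest 10% of gated nuclei gave 214 lower genes and ratios of 0.284 and 0.122. All other gated nuclei as comparison gave 0.171 in suffix 2. A minimum of 50 CPM gave 113 higher and 38 lower genes, and no minimum 989 and 242. Without the deepest member of suffix 1, also chosen after seeing the data, 110 genes were lower. Of the 70 lower genes, 63 or more recurred under each of the settings that raised the count to 181 or more at the minimum of 20 CPM, and the split between higher and lower calls moved from 74.9% higher to 58.5% with equal weights. The causes were not tested. The 64 members of suffix 1 limit the precision, and genes under 20 CPM are not covered.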

Other observations

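Among the 209 higher genes were single receptor genes outside the lists, picked here after their values were seen. The estrogen receptor Esr1 stood at 3.82 and 2.20 times its level in the comparison nuclei of suffix 1 and suffix 2, the thyrotropin receptor Tshr at 3.99 and 3.29, and the growth hormone receptor Ghr, one of the most abundant, at 5950 and 7853 CPM against 2037 and 2523 CPM (2.92 and 3.11). Trhde, an ectoenzyme that degrades thyrotropin-releasing hormone, was at 171 and 303 CPM against 0.638 and 47.5 CPM (268, 180 to 410, and 6.39, 5.76 to 7.11), and Ffar2, a receptor of short-chain fatty acids, at 85.3 and 6.11. Trhde passed the minimum of 20 CPM in suffix 1 only through the members. Other genes picked here may have passed in the same way, since 118 of the 209 higher genes did so in a suffix.

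Further single genes among them were picked in the same way and stand for no group, since no list of their pathways was counted. Cavin1, a coat protein of caveolae, was at 2.20 and 2.87, Cavin2 at 5.55 and 2.64, and Ehd2, which sits at the caveolar neck, at 2.73 and 3.70. Col15a1 was at 55.0 and 392 CPM against 2.29 and 72.4 CPM (24.0 and 5.42), Nid1 at 6.90 and 3.15 and Hspg2, perlecan, at 2.09 and 2.12. Fkbp5 and Tsc22d3, both known to respond to glucocorticoids, were at 4.48 and 4.75, and 2.16 and 5.89. Bcat2 and Ivd, of branched-chain amino acid breakdown, were at 2.94 and 5.89, and 2.52 and 3.69. Among the 70 lower genes, Gk, glycerol kinase, was at 370 and 968 CPM against 759 and 4434 CPM (0.488 and 0.218), and Pkm, a pyruvate kinase, at 0.411 and 0.198.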
